A study of Rattus norvegicus with 10 samples.

Results

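The immediate early genes are the genes that cells switch on within minutes of a stimulus, before any new protein is made. A list of 10 was examined: Fos, Jun, Junb, Egr1, Atf3, Nr4a1, Dusp1, Ier2, Zfp36 and Btg2. Members were every probe set of the array whose annotation gave a single gene symbol and that symbol was in the list. This rule found 13 probe sets for 9 of the 10 genes, out of 31042 probe sets and 14217 named genes in all, and Btg2 was not analysed here. The samples were white adipose tissue of 10 male rats aged 13 weeks, with 1 expression array for each. In the noodle group, 5 rats were given feed that was 30% instant noodle by weight, seasonings included, and that drew 26% of its energy from fat. The 5 control rats are described as having eaten that diet with the seasonings left out. Feeding was paired, with roughly 60 g of feed per kg of rat each day, and all rats drank freely and lived under 12 hours of light and 12 of dark. Feeding is given as 30 days in one place of the labels and as 4 weeks in another. No strain, fat depot, time of day at killing or order of dissection is given in the sources used here, and p-values measure the spread between these 10 samples.

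In a resting cell several of these genes are nearly silent. The promoters of immediate early genes hold binding sites for proteins that are already present and only need to be phosphorylated. Serum response factor with its partners binds the CArG box, and CREB binds the cAMP response element (CRE). Fos, Jun and Junb then form the AP-1 transcription factors, Egr1 and Nr4a1 activate further genes, and Dusp1, Zfp36 and Btg2 end the response. In tissue taken from animals the same genes are known to respond to stress, anaesthesia, loss of blood flow and handling during dissection, and in fat they also respond to hormones such as adrenaline and to feeding.

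Promoters of 7 of the 10 genes were found in RefSeq's GRCr8 table, each 250 bases before and 50 after the start of transcription. Those of Dusp1, Ier2, Junb, Zfp36 and Nr4a1 are shown as examples. The first 4 of these genes rose and fell together between animals, and Nr4a1 followed them least. Egr1, whose promoter is not shown, had r between 0.630 and 0.828 with those 4 genes. Its pair with Junb, the lowest, did not pass after adjustment (Pearson's r, adjusted permutation p = 0.0555). The promoters shown are written 5′ to 3′ on the gene's own strand. Capitals mark CRE letters (TGACGTCA or its core TGACG, on either strand) and CArG boxes.
Dusp1 promoter, chr10:17184603-17184902, plus strand: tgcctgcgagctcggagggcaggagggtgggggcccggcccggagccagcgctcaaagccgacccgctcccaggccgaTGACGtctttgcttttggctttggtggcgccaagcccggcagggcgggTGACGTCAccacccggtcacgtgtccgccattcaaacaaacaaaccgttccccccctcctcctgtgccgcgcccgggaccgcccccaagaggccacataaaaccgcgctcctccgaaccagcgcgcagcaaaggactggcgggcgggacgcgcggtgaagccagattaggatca
Ier2 promoter, chr19:40399123-40399422, plus strand: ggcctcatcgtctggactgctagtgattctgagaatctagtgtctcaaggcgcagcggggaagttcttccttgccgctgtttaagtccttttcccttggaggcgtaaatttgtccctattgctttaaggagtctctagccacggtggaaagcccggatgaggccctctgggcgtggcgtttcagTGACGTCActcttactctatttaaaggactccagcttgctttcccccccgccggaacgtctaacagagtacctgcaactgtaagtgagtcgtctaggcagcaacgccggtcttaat
Junb promoter, chr19:40080876-40081175, plus strand: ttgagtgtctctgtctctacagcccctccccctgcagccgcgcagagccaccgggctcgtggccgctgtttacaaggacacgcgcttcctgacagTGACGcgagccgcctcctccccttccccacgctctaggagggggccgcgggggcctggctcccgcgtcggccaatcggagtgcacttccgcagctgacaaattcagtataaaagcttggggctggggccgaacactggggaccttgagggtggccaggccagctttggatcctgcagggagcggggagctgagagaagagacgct
Zfp36 promoter, chr1:92799059-92799358, minus strand: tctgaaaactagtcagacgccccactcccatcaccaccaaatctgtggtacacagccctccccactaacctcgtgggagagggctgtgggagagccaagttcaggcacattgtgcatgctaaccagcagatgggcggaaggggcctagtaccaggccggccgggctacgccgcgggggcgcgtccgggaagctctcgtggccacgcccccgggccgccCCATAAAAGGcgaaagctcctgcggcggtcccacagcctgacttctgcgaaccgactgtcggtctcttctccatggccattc
Nr4a1 promoter, chr7:134259888-134260187, plus strand: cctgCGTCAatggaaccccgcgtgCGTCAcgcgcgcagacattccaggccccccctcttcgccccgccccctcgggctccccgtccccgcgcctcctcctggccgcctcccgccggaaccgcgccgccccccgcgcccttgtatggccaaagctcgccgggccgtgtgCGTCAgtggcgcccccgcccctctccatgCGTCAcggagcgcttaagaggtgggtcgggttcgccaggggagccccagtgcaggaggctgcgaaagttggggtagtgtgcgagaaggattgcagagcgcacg

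The full CRE, TGACGTCA, was found in the promoters of Dusp1, at -124 to -117 from the start of transcription, Ier2, at -66 to -59, and Btg2, at -201 to -194. That sequence is present in 1.83% of all 33469 promoters of this length in the table. The core TGACG, which the full CRE also contains on both strands, was found in 5 of the 6 promoters of members with usable values, against 21.2% of all promoters. Nr4a1 held 4 cores and Junb held 1. The CArG box was found in the promoters of Zfp36, as CCATAAAAGG, and Egr1, as CCATATTAGG and CCATATATGG, against 1.64% of all promoters. AP-1 sites (TGANTCA) were found in none of the 6 promoters and in 7.33% of all of them. TATAAA stood in 1 of the 6 and in 14.2% of all, and the EGR site GCGNGGGCG stood in 2 of the 6 and in 4.98% of all. These matches describe letters in a window, and binding was not measured.

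The deposited values were log2-like numbers, 1 per probe set and array, and most of them hardly varied. Only 2607 of the 31042 probe sets (8.4%) had an SD over the 10 arrays above 0.01, and the rest are called flat. Of the 13 member probe sets, 11 were not flat, and they covered 8 genes. Flat members were the only probe set of Atf3, a stress-induced transcription factor, at 6.12 in each of the 10 rats, and the second probe set of Fos, at 5.68 in each. Their SDs were both 0.000173, while the lowest SD among the other members was 0.0962, for Nr4a1. A difference between diets cannot be sized from a flat probe set, so Atf3 is not described further. Array medians lay between 6.17 and 6.18. The extraction text of the labels speaks of a brain sample, so markers were checked. The median level was 12.2 over 11 adipocyte markers and 5.74, below the array medians, over 11 brain markers.

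Among the transcription factor genes, the spread between rats was wide for Fos and Egr1 and narrow for Nr4a1. Fos, the AP-1 subunit most used as a readout of recent stimulation, had the widest range. In the noodle rats its value was 6.66 in animal 1, 8.91 in animal 4, 8.64 in animal 7, 8.12 in animal 10 and 7.36 in animal 13. In the control rats it was 8.08 in animal 2, 6.39 in animal 5, 8.19 in animal 8, 9.06 in animal 11 and 8.42 in animal 14. Each diet thus held a rat near the bottom and a rat near the top, and the groups overlapped almost fully. The highest and the lowest rat were 6.36-fold apart on the deposited scale. The SD of Fos over the arrays, 0.906, was the 19th highest among the 2607 probe sets that were not flat.

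Egr1, a zinc finger factor that responds to growth factor signalling, was set apart by 1 rat in the noodle group. Noodle animal 4 stood at 9.04, while noodle animals 1, 7, 10 and 13 stood at 7.66, 7.84, 7.84 and 7.75. Control animals 2, 5, 8, 11 and 14 stood at 8.11, 7.87, 8.22, 8.93 and 8.26. The other 4 noodle rats were thus below every control rat, and noodle animal 4 was above all of them.

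Junb, an AP-1 subunit, stood at 6.60, 7.13, 7.14, 7.05 and 7.07 in noodle animals 1, 4, 7, 10 and 13. In control animals 2, 5, 8, 11 and 14 it stood at 6.98, 6.60, 7.10, 7.50 and 7.37. The lowest noodle and control rat had the same value to 2 decimals, and control animals 11 and 14 exceeded all noodle rats. Jun, the main partner of Fos, was measured by 3 probe sets that were not flat, and the brightest of them is used. It stood at 8.40, 9.19, 8.83, 8.60 and 8.61 in the noodle rats and at 8.63, 8.23, 8.60, 8.94 and 8.60 in the controls, in the same order of animals. Here noodle animal 4 was the highest rat and control animal 5 the lowest. The 3 probe sets followed each other over the 10 rats with r between 0.799 and 0.920. That brightest probe set is of the type named _s_at, which can match more than 1 transcript.

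Nr4a1, an orphan nuclear receptor gene induced by adrenaline in fat and muscle, varied least, between 6.47 and 6.74. Its values lay little above the array medians of 6.17 to 6.18. Whether a weak signal narrowed its spread or weakened its correlations was not tested. Its noodle values were 6.58, 6.66, 6.52, 6.49 and 6.47 and its control values 6.69, 6.50, 6.52, 6.74 and 6.63. Its SD exceeded that of only 13.1% of the probe sets that were not flat, and noodle animal 13 rather than animal 1 was the lowest rat of its group.

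Dusp1 and Zfp36, which damp the response, and Ier2 were high and low in much the same rats as Fos. Dusp1, a phosphatase that switches off MAP kinases, stood at 8.96, 9.81, 9.30, 9.43 and 9.09 in noodle animals 1, 4, 7, 10 and 13. Its control values were 9.24, 9.11, 9.35, 10.06 and 9.98 in animals 2, 5, 8, 11 and 14. Control animals 11 and 14 and noodle animal 4 stood above the other 7 rats, and the second Dusp1 probe set followed the first with r = 0.956. Zfp36, which encodes tristetraprolin and speeds the decay of cytokine mRNAs, ranged from 7.50 in noodle animal 1 to 8.58 in control animal 11. Its other noodle values were 8.20, 8.004, 8.11 and 7.90, and its other control values were 7.92, 7.79, 8.20 and 8.51. Ier2, a small nuclear protein gene, ranged from 7.01 in noodle animal 1 to 7.94 in noodle animal 4. Its other noodle values were 7.66, 7.61 and 7.45, and its control values were 7.48, 7.13, 7.76, 7.81 and 7.66. In both genes the diets overlapped: the noodle rats reached from 7.50 to 8.20 and the control rats from 7.79 to 8.58 for Zfp36, and from 7.01 to 7.94 and 7.13 to 7.81 for Ier2.

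**Figure D1:**
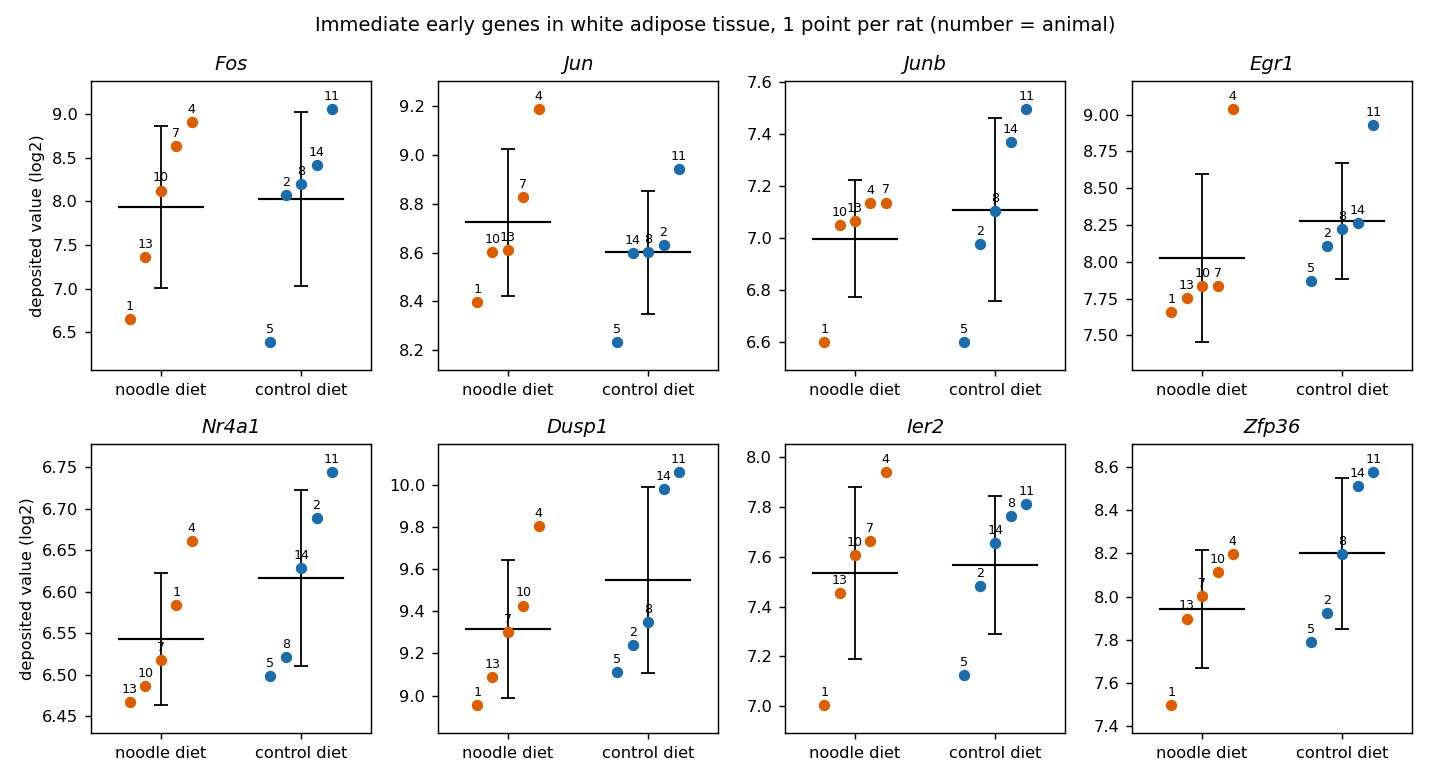
Deposited log2 value of 8 immediate early genes (a panel each, with its own vertical axis) in the 5 noodle and 5 control rats. Points are rats with their animal numbers, spread sideways in order of value, the line is the group mean and the bar 1 SD; for Fos the noodle rats span 6.66 to 8.91 and the control rats 6.39 to 9.06, so the groups overlap.

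The comparison between the diets asks whether the seasoned noodle diet left a different immediate early signal in fat. No member differed beyond the spread between rats. In limma with Benjamini-Hochberg adjustment over all probe sets, 0 of the 13 member probe sets and 0 of the 31042 tested (0%) passed the threshold of 0.05. The smallest adjusted p among the members was 0.993. Before adjustment, 0 of the 11 member probe sets that were not flat had a p under 0.05, against 8.13% of all such probe sets. By the exact two-sided permutation test, whose smallest possible p is 0.00794, their p lay between 0.230 and 0.889. In none of the 11 were the groups apart without overlap, which held for 0.959% of all probe sets that were not flat.

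Of the 8 genes, 7 were lower and 1 was higher in the noodle group by the sign alone, and 54.2% of all genes that were not flat were lower. Of the 11 member probe sets that were not flat, 8 were lower, and 55.4% of all such probe sets were lower. The median difference of the 8 genes was -0.100 log2 units and that of all genes that were not flat was -0.0091. Zfp36 differed by -0.26 ± 0.19 (SE, n = 5 per group), with a 95% interval of -0.69 to 0.18. Egr1 differed by -0.25 ± 0.30, with an interval of -0.94 to 0.43, and the difference was -0.51 without noodle animal 4 and -0.091 without control animal 11. Dusp1 differed by -0.23 ± 0.24, with an interval of -0.78 to 0.31. For Fos the difference was -0.089 ± 0.587, and its interval of -1.43 to 1.25 leaves room for a change of more than 1 log2 unit either way. Jun, at 0.12 ± 0.17, was the member with a higher noodle mean, and its interval ran from -0.27 to 0.51. The differences of Junb (-0.11 ± 0.18) and Ier2 (-0.033 ± 0.191) were smaller than their errors. That of Nr4a1 (-0.074 ± 0.057) exceeded its error, and its interval ran from -0.20 to 0.057. A measure of RNA quality, the difference between 3-prime and 5-prime control probe sets of Actb and Gapdh, was 0.84 ± 0.07 in the noodle and 0.95 ± 0.08 in the control arrays (SD, n = 5). With it as a covariate the difference was -0.38 ± 0.79 for Fos, -0.31 ± 0.22 for Junb and -0.092 ± 0.261 for Ier2. It was -0.38 ± 0.25 for Zfp36, -0.34 ± 0.32 for Dusp1 and -0.086 ± 0.078 for Nr4a1. Each of these was farther from 0 than without the covariate. The differences of Egr1, at -0.19 ± 0.41, and Jun, at 0.084 ± 0.232, were nearer to 0 with the covariate. None of the 8 differences changed sign or passed with it, and the lowest adjusted p in limma was 0.794.

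**Figure D2:**
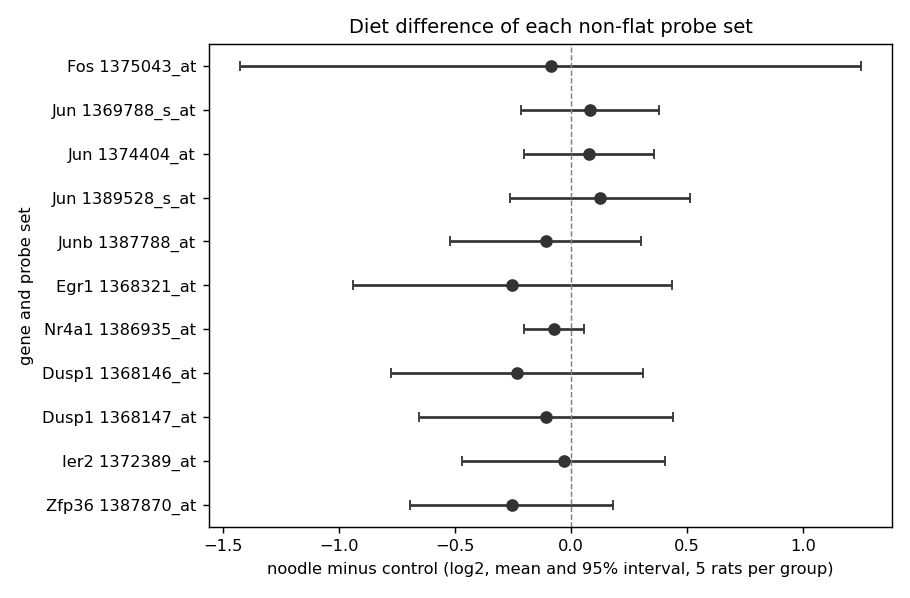
Difference of each of the 11 non-flat member probe sets, noodle minus control in log2 units, with its 95% interval from limma (5 rats per group). All intervals include 0, and the widest is that of Fos, from -1.43 to 1.25.

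Several rats were high, or low, for most of the 8 genes at once. Control animal 11 was the highest or second highest of all 10 rats in 8 of 8 genes. Noodle animal 4 was above the median of the 10 rats in 8 of 8 genes and the highest noodle rat in 7. At the other end, control animal 5 was the lowest control rat in 8 of 8 genes, and noodle animal 1 was the lowest noodle rat in 7 of 8 and among the 2 lowest of all rats in 7. Control animal 14 was above the median in 7 of 8 genes and noodle animal 13 below it in 7 of 8. Noodle animals 7 and 10 and control animals 2 and 8 stood between these on average and were mixed: control animal 2 was the second highest rat for Nr4a1 but above the median in 3 of 8 genes, and noodle animal 7 was above it in 4. The extremes therefore came as a high and a low rat in each diet group.

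**Figure D3:**
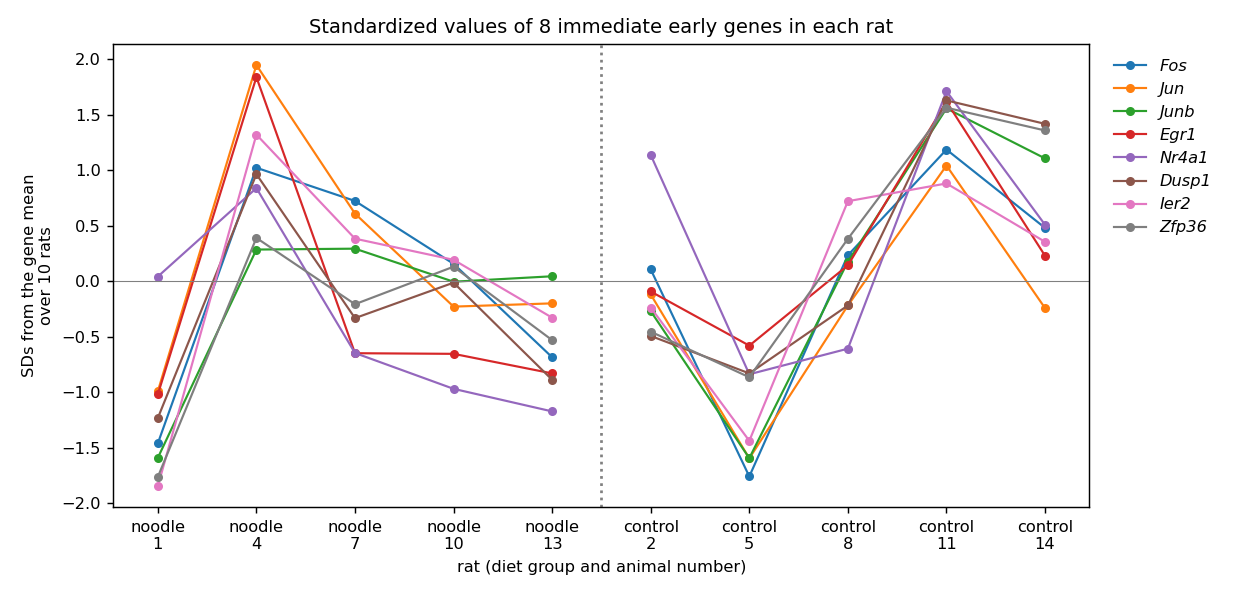
Each gene's value in each rat, as SDs from that gene's mean over the 10 rats. Rats are ordered by diet and animal number only, and lines join 1 gene's values within a diet; control animal 11 and noodle animal 4 lie above 0 in all 8 genes and control animal 5 lies below 0 in all 8.

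Over the 10 rats all 28 pairs of the 8 genes had a Pearson's r above 0, where 53.7% of the 1594005 pairs of genes that were not flat did. The median r was 0.751 for the member pairs and 0.0442 for all pairs. An r above 0.8 was found in 11 of the 28, and in 1.67% of all pairs. By permutation (100000 resamples, two-sided, adjusted over the 28 pairs) 19 pairs passed 0.05 with Pearson's r and 16 with Spearman's rho. The number of pairs passed fell to 9 without control animal 11 and to 12 without noodle animal 1, and to 3 when noodle animal 1 and control animal 5 were both left out, while the median r was then 0.733, 0.720 and 0.668. Genes on the same array share its RNA and scaling, so pairs are not independent of each other.

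Fos and Ier2 followed each other most closely, with r = 0.942 and rho = 0.939 (permutation p = 0.00022 and 0.00019, adjusted p = 0.00308 and 0.00266). Without the 2 rats farthest from the median of Fos, r was 0.830. Next came the pair of genes that end the response, Dusp1 and Zfp36, with r = 0.936 and rho = 0.976 (permutation p = 4e-05 and 5e-05, adjusted p = 0.00112 and 0.0014, r without 2 rats 0.835). Junb followed Zfp36 with r = 0.927 and rho = 0.867 (permutation p = 0.00041 and 0.00225, adjusted p = 0.00383 and 0.0105), and r was 0.923 without 2 rats. Fos also followed Junb (r = 0.889) and Jun (r = 0.872), its partners in AP-1, and without 2 rats these values were 0.617 and 0.753.

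The weaker pairs mostly involved Nr4a1. Of its 7 pairs 1 passed with Pearson's r, that with Egr1 (r = 0.746, rho = 0.697, permutation p = 0.0124 and 0.0317, adjusted p = 0.0241 and 0.0522, r without 2 rats 0.495). Of the 21 pairs without Nr4a1, 18 passed with Pearson's r. The 3 that did not were Jun with Dusp1 (r = 0.652), Jun with Zfp36 (r = 0.568) and Junb with Egr1 (r = 0.630). By Spearman's rho these 3 did not pass either. Nor did Jun with Junb (rho = 0.612, adjusted permutation p = 0.0988) and Jun with Egr1 (rho = 0.515, adjusted permutation p = 0.163). The lowest r of all was that of Nr4a1 with Ier2, at 0.352. Over the 28 pairs, leaving out the 2 rats farthest from the median of the first gene gave a median r of 0.666, a lowest r of 0.308 and 28 of 28 above 0.

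The co-variation was present within each diet. Among the 5 noodle rats the median r was 0.812 and 27 of 28 pairs were above 0, the exception being Junb with Nr4a1 at -0.167. Among the 5 control rats the median was 0.836 and 28 of 28 were above 0, with the lowest at 0.504. With 5 rats per diet these values are given without a test. On deviations from the diet means the median r over all 10 rats was 0.785.

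**Figure D4:**
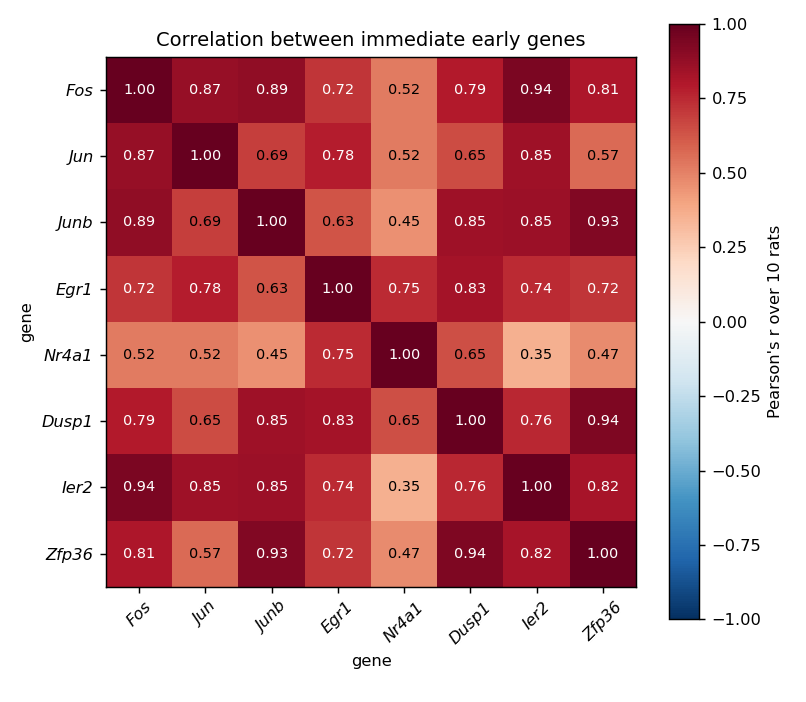
Pearson's r over the 10 rats for each pair of the 8 genes. Values run from 0.352 for Nr4a1 with Ier2 to 0.942 for Fos with Ier2, and the row of Nr4a1 is the palest.

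A longer list of immediate early and early response genes moved with the members to differing degrees. Of its 50 genes, which include relatives such as Fosb, Egr2 and Nr4a2, all were measured and 28 were not flat. In the diet comparison 11 of the 28 were higher and 17 lower by sign, 0 reached an unadjusted p under 0.05, and the median difference was -0.061. Of all genes that were not flat, 45.8% were higher, 54.2% were lower and 8.01% had such a p. The smallest p belonged to Myc, a growth regulator, at -0.36 ± 0.17 (unadjusted p = 0.0649, adjusted p = 0.993 in limma), and to Ccn2, a matrix protein gene, at -0.41 ± 0.19. Nfkbia, an inhibitor of NF-kB, differed by -0.25 ± 0.12 and Btg1, an antiproliferative relative of Btg2, by 0.19 ± 0.10. Errfi1, Ccn1, Zfp36l2 and Sik1 differed by -0.31 ± 0.17, -0.28 ± 0.18, -0.18 ± 0.11 and -0.16 ± 0.10.

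For likeness, the 8 members were each standardized and averaged to a profile over the 10 rats, and each gene's Pearson's r with it is given as a description. The members themselves, which are part of the profile, had r between 0.675 (Nr4a1) and 0.938 (Fos). The 28 other early genes had a median r of 0.573, with 25 of 28 above 0. Over all genes that were not flat the median was 0.126, with 1059 of 1786 above 0. Those most like the members were Ccn1, a matricellular protein gene (r = 0.860), Nfkbiz (0.840), the chemokine gene Cxcl1 (0.794), Klf2 (0.759), Gadd45g (0.756), Ier3 (0.741), Ier5 (0.736) and Zfp36l1 (0.732). Ccn1 stood at 6.61, 7.26, 6.73, 6.81 and 6.50 in noodle animals 1, 4, 7, 10 and 13 and at 7.18, 6.63, 6.93, 7.28 and 7.29 in control animals 2, 5, 8, 11 and 14. As with the members, noodle animal 4 and control animals 11 and 14 were high and noodle animal 1 and control animal 5 low. Noodle animal 13, at 6.50, was lower still, and control animal 2, at 7.18, was also high. Fosb, the closest relative of Fos, was less like the members (r = 0.460): noodle animal 4 and control animal 8 both stood at 6.53, and control animals 11 and 14 at 6.12 and 5.67. Fosb values, 5.64 to 6.53, lay around the array medians of 6.17 to 6.18, as did those of Cxcl1, 5.63 to 6.70. Whether a weak signal altered the r of these genes was not tested. The mean of the 28 genes followed Fos with r = 0.827 and rho = 0.770 (permutation p = 0.00313 and 0.0125, adjusted over 15 measures p = 0.0469 and 0.188), and r was 0.566 without the 2 rats farthest from the median of Fos.

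Among all 1778 other genes that were not flat, 19 (1.07%) had an r above 0.8 with the profile. The 10 highest were Efemp1 (r = 0.885), Col6a1 (0.878), Gpx8 (0.876), Ptn (0.861), Ccn1, Ackr3 (0.854), Tpm1 (0.853), Ociad2 (0.852), Cpe (0.843) and Nfkbiz. Efemp1 and Col6a1 encode extracellular matrix proteins and Tpm1 a tropomyosin of the actin cytoskeleton. Efemp1 stood at 9.71, 10.26, 9.87, 10.04 and 9.90 in noodle animals 1, 4, 7, 10 and 13 and at 9.86, 9.74, 9.95, 10.27 and 10.39 in control animals 2, 5, 8, 11 and 14. The range of Gpx8 over the rats was only 0.045.

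Glucocorticoid-responsive genes, which share Dusp1 and Zfp36 with the members, were not all alike. Of 15 listed genes 13 were measured and 11 were not flat, 1 of them higher and 10 lower in the noodle group by sign, with 1 at an unadjusted p under 0.05 (Mt2A, a metallothionein, at -0.34 ± 0.14), beside 54.2% lower and 8.01% with such a p among all genes that were not flat. Apart from Dusp1 and Zfp36, r with the member profile ran from -0.205 for Fkbp5, a standard glucocorticoid target, to 0.610 for Cebpd. Per1, a clock gene that is also an early gene, had r = 0.0746. Of 27 listed kinases, cofactors and transcription factors upstream of the members, 22 were measured and 0 were not flat, so nothing can be said of their levels.

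Markers of cell types were set beside the members, since in whole tissue fewer cells of a type and less RNA per cell cannot be told apart. All 4 mast cell markers that were not flat (Cpa3, Tpsab1, Tpsb2 and Fcer1a, of 8 measured) had an r with the profile between 0.613 and 0.742. The mean level of the 8 ran from 6.63 to 6.87 in the noodle rats and from 6.63 to 6.95 in the controls. The mean of the 4 was 7.29, 7.64, 7.24, 7.16 and 7.18 in noodle animals 1, 4, 7, 10 and 13 and 7.30, 7.16, 7.49, 7.51 and 7.79 in control animals 2, 5, 8, 11 and 14. Noodle animal 4 and control animals 11 and 14 were the highest, as for most members, and control animal 5 the lowest. Noodle animal 1, low for the members, was the second highest noodle rat here. All 9 mesothelial markers were above 0, as were 1059 of the 1786 genes that were not flat. The r of these markers ran from 0.401 to 0.773 (Wt1). Their mean level was 6.22 to 7.12 in the noodle rats and 6.15 to 7.74 in the controls. The 8 fibroblast and progenitor markers that were not flat had a median r of 0.501 and the 5 endothelial ones a median of 0.523. Macrophage markers had a median of 0.068 over 12 genes and adipocyte markers one of -0.074 over 5. The median was 0.212 over 4 smooth muscle and pericyte genes, -0.344 over 4 red blood cell genes and 0.126 over 2 brain genes. Neutrophil, lymphocyte and skeletal muscle lists had 1 gene each that was not flat, S100a9 (r = -0.440), Cd74 (0.382) and Myh1 (-0.181).

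Set against Fos alone, the mast cell mean had r = 0.582 and rho = 0.685 (permutation p = 0.0772 and 0.0352, adjusted over 15 measures p = 0.579 and 0.264). The other cell type means had r between -0.412 (red blood cells) and 0.444 (endothelial), with adjusted p of 0.717 or more. Of the array measures, the 3-prime to 5-prime difference had r = -0.128, the hybridization controls r = 0.0606 and the array median r = 0.423, also with adjusted p of 0.717 or more. The means of the heat shock genes and of the glucocorticoid-responsive genes other than members had r = -0.0667 and 0.0731 (adjusted p = 0.863 for both). Beyond these values the part of cell makeup in the co-variation was not tested.

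**Figure D5:**
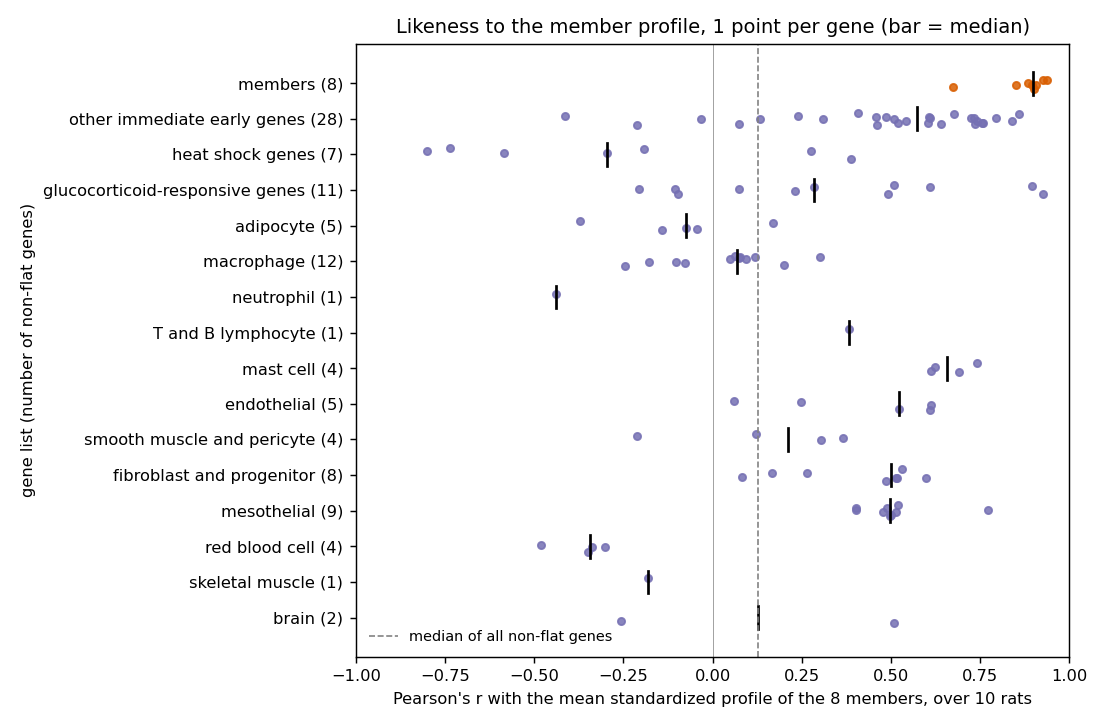
Pearson's r of each non-flat gene with the mean standardized profile of the 8 members over 10 rats, by gene list, with the list median as a bar and the median of all non-flat genes, 0.126, as a dashed line. The members are part of the profile; the other immediate early genes have a median of 0.573, the 4 mast cell genes lie between 0.613 and 0.742, and heat shock genes have a median of -0.297.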

How the data were processed

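RNA from white adipose tissue of 10 rats was cleaned on a column and 100 ng was made into biotin-labelled cRNA, per the labels' protocols. The authors deposited 1 table of values, taken here as log2 from their range of 4.73 to 13.9; the sources used here do not give the log base, background correction, summarisation or normalization, so folds are on the deposited scale. Of 31099 probe sets, 57 controls were left out. Of the 31042 tested, 20826 had 1 gene symbol in the platform annotation, 436 several and 9780 none, and 20758 of the single-gene probe sets matched the current gene table.

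Diet groups came from the diet field. The comparison was noodle minus control in limma 3.58.1 (R 4.3.3, lmFit and eBayes, two-sided, Benjamini-Hochberg over all probe sets). A gene was represented by its probe set with the highest mean among those with SD above 0.01. Correlations over rats used permutation tests. The fit, the correlation test and the motif search were tested on simulated data. Named genes were the members, 8 early genes by p and 8 by r, and the 10 most and 5 least like genes, with markers of 12 cell types; Fosb, Per1 and the genes named from the heat shock and glucocorticoid lists were picked after their values were seen. The members and lists were chosen with earlier results of these data known. Alternatives were scaling, floor, filters, variance prior, array weights, array covariates, choice of probe set and leaving out rats; the removal of pairs of extreme rats was added after seeing the data. The precision is limited by 5 arrays per group.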

Additional observations from a re-analysis of the deposited data

Results flagged for a closer look

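In 16 groups of 5 rats examined (8 genes, 2 diets), 2 had a rat far from the other 4 by Dixon's ratio, where chance gives about 0.8 (about 1 in 20). Egr1 stood at 9.04 in noodle animal 4, against 7.66 to 7.84 in the other noodle rats. Junb stood at 6.60 in noodle animal 1, against 7.05 to 7.14 in the others. Both rats were at the same end for most of the other members, and in the control group Egr1 in animal 11 stood at 8.93 and Junb in animal 5 at 6.60.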

How the results depend on the processing

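None of the 8 gene differences passed the threshold in any alternative of the limma fit, where the lowest adjusted p was 0.368. Of 192 values under alternatives, 54 equalled the reported difference, from settings of the test, floor, filter or probe set that left the gene's values as they were, and 130 of the other 138 kept their sign. Leaving out 1 rat moved the Fos difference between -0.50 and 0.23 and that of Ier2 between -0.14 and 0.099, both turning sign, that of Egr1 between -0.51 and -0.091, that of Junb between -0.24 and -0.011, and array weights gave 0.00043 for Ier2. The number of probe sets past the threshold was 0 in every alternative but 1, and 0 to 1 when 1 rat was left out. The median r over the member pairs was 0.720 to 0.812 and the number of pairs passed 9 to 20 without single rats. On deviations from diet means the median was 0.785. Without noodle animal 1 and control animal 5 it was 0.668 with 3 pairs passed, and without noodle animal 4 and control animal 11 it was 0.662 with 13; with 8 rats the test has less power. No paired analysis was run, because the sources used here do not say which noodle rat was paired with which control rat in feeding. Flat probe sets, among them Atf3, limit what can be read.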

Other observations

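Heat shock genes, some of which are known to respond to handling of tissue, had a median r of -0.297 with the member profile. Of 14 listed genes 11 were measured and 7 were not flat. All 7 were higher in the noodle group by sign, with a median difference of 0.092, where 45.8% of all genes that were not flat were higher. An unadjusted p under 0.05, found for 8.01% of all such genes, was reached by 1 of the 7 in limma, the chaperone gene Hsph1 at 0.35 ± 0.12 (SE, n = 5 per group). Their r with the member profile ran from -0.799 for Hspd1, a mitochondrial chaperone gene, to 0.389 for Hspa1a, the inducible heat shock protein gene. Hspa1a was highest in control animal 2, at 8.25, and lowest in control animal 5, at 6.90, while noodle animal 4 and control animal 11 stood at 7.76 and 7.60.

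The genes that ran most opposite to the member profile were Art3 (r = -0.939), Gbe1 (-0.936), Aldh1l1 (-0.918), Eno1 (-0.912) and Tkt (-0.909). Gbe1 encodes the glycogen branching enzyme, Eno1 an enzyme of glycolysis and Tkt transketolase of the pentose phosphate pathway. Tkt stood at 10.68, 10.06, 10.23, 10.21 and 10.65 in noodle animals 1, 4, 7, 10 and 13 and at 10.18, 10.62, 10.32, 10.04 and 10.16 in control animals 2, 5, 8, 11 and 14. In all, 36 genes had an r below -0.8 and 19 an r above 0.8, of 1778.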
